A study of Homo sapiens with 16 samples.

Results

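THP-1 cells carrying a short hairpin RNA against UHRF1 (shUHRF1) were compared with THP-1 cells carrying a control hairpin (shNC), both kept in DMSO for 48 h. THP-1 is a human monocytic leukemia line that turns into macrophage-like cells when the phorbol ester PMA is added, and DMSO is the solvent control, so these are the undifferentiated monocytes of the study. The comparison takes in the 4 libraries whose titles and count columns name shUHRF1 or shNC without PMA, 2 for each line, of 16 libraries in all, and it is described across the 16503 genes, of 60676 in the table, that passed the filter on low counts. The other 12 libraries are shUHRF1 and shNC cells in PMA, and shDNMT1 and shDNMT3B cells in DMSO and in PMA. Every line, shNC included, was infected with a lentivirus made from the pLKO.1 vector and selected with puromycin, and each target gene was hit by 1 hairpin, so that an effect of that hairpin apart from its target cannot be told apart from an effect of losing UHRF1. The control is likewise the shNC line alone, so a change in shNC cells cannot be told apart from an opposite change in shUHRF1 cells.

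UHRF1 recognises hemimethylated CpG sites behind the replication fork and recruits DNMT1, which copies the methyl mark onto the new strand. DNMT3B is a de novo DNA methyltransferase. In other cancer cells, drugs that strip DNA methylation are known to raise interferon-stimulated genes, because silenced repeats become transcribed and are sensed as foreign nucleic acid. In that pathway type I interferon binds its receptor, the kinases JAK1 and TYK2 become active, and a complex that contains STAT2 and IRF9 binds the interferon-stimulated response element (ISRE) in front of antiviral genes.

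The RNA-seq libraries held 20384066 and 15679327 counts in shUHRF1 cells and 20851695 and 14607970 in shNC cells, within the range of 13883556 to 23151864 over the whole series. Groups were taken from titles and count columns, since the description field of 12 of the 16 samples names another condition than the title. Levels are given as CPM, counts scaled to a library of 1000000 with factors from the trimmed mean of M-values, for library 1 and library 2 of a line in that order. Library 1 differed from library 2 in both lines, with mitochondrially encoded genes taking 26.6% and 9.86% of counts in the shUHRF1 libraries and 24.4% and 9.97% in the shNC libraries. In a principal component analysis of the 4 libraries, the first component (44.5% of the variance) separated the replicate numbers and the second (41.2%) separated shUHRF1 from shNC. Because same-numbered libraries deviated together in 28 of 28 pairs of groups, a fit with the replicate number as a block is given beside the counts over all genes and over the main lists. The labels do not say that the replicates were separate cultures. The p-values therefore measure the spread between libraries of the same group, estimated over all 16 libraries, and this spread may be technical. Of the 14 monocytic leukemia markers 13 reached 1 CPM in all 4 libraries, with sums of 1628 and 1768 CPM in shUHRF1 cells against 1742 and 1897 CPM in shNC cells. The sums for the other cell types were, in shUHRF1 libraries and then shNC libraries, 21.6 and 13.1 against 26.7 and 13.9 CPM for 13 T and NK cell genes, 13.9 and 10.8 against 15.1 and 19.6 CPM for 9 B cell genes, 1.21 and 1.95 against 0.842 and 1.12 CPM for 6 platelet genes, and 3.39 and 2.76 against 4.37 and 4.15 CPM for 9 epithelial genes. The 10 fibroblast and endothelial genes summed to 92.2 and 108 CPM in shUHRF1 libraries against 253 and 206 CPM in shNC libraries, nearly all of it from PECAM1, while COL3A1, LUM and CDH5 were at 0 in all 4. The 13 erythroid genes summed to 0.0968 and 0.0476 CPM in shUHRF1 libraries and to 492 and 0 CPM in shNC libraries, so that shNC library 1 stands apart with hemoglobin transcripts (HBB, HBA2 and HBA1 make up nearly all of the sum) and counts are also given without it.

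UHRF1 itself (chr19:4903080-4962154, plus strand, GRCh38) had 72.0 and 91.2 CPM in shUHRF1 cells and 87.1 and 123 CPM in shNC cells. The ranges overlapped, and the lowest of the 4 was shUHRF1 library 1. The fitted log2 fold change was -0.36 (SE 0.26), and edgeR's quasi-likelihood test gave an adjusted p of 0.605, or 0.0525 with the replicate block. The transcript of the targeted gene was therefore not called lower, and shUHRF1 is used throughout as the label of the libraries. The study checked its knockdowns by western blots of the target proteins, a level that these RNA counts do not measure. Among its partners, DNMT1 had 123 and 159 CPM in shUHRF1 cells against 89.6 and 140 CPM in shNC cells (log2 fold change 0.29, adjusted p = 0.743, or 0.082 with the replicate block, by edgeR's quasi-likelihood test). UHRF2, its paralog, had 85.0 and 86.9 CPM in shUHRF1 cells against 56.1 and 70.9 CPM in shNC cells, without overlap, at a log2 fold change of 0.44 (adjusted p = 0.484 by edgeR's quasi-likelihood test).

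More genes were downregulated than upregulated, and how many more depended on the fit. A gene was called where edgeR's quasi-likelihood test gave an adjusted p under 0.05 over all genes tested and the fitted change was over 1.5-fold either way. In shUHRF1 cells 189 genes were lower (1.15% of those tested) and 28 were higher (0.170%). With the replicate block 669 were lower (4.05%) and 528 were higher (3.20%), and the 217 genes called without the block were all called with it, in the same direction. Without shNC library 1 the counts were 88 lower and 3 higher, or 399 lower and 101 higher with the block, and without shUHRF1 library 1 they were 66 lower and 3 higher. Fitting only the 4 libraries compared, instead of all 16, left 15 lower and 0 higher by edgeR's quasi-likelihood test, and DESeq2 called 344 lower and 125 higher. The libraries of the 2 lines did not overlap for any of the 217 called genes. Over all genes tested, both shUHRF1 libraries lay below both shNC libraries in 3507 (21.3%), and the median log2 fold change was -0.04. Of the 189 lower genes 54 belonged to the interferon lists, 27 to the amino acid and tRNA synthetase lists, 9 to the sterol list and 91 to none of the 32 lists used. Their median log2 fold change was -1.35, and 42 lay below -2. The interferon lists take in the type I interferon response, interferon receptors and transcription factors, nucleic acid sensors and nucleases, and guanylate-binding proteins.

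**Figure D1:**
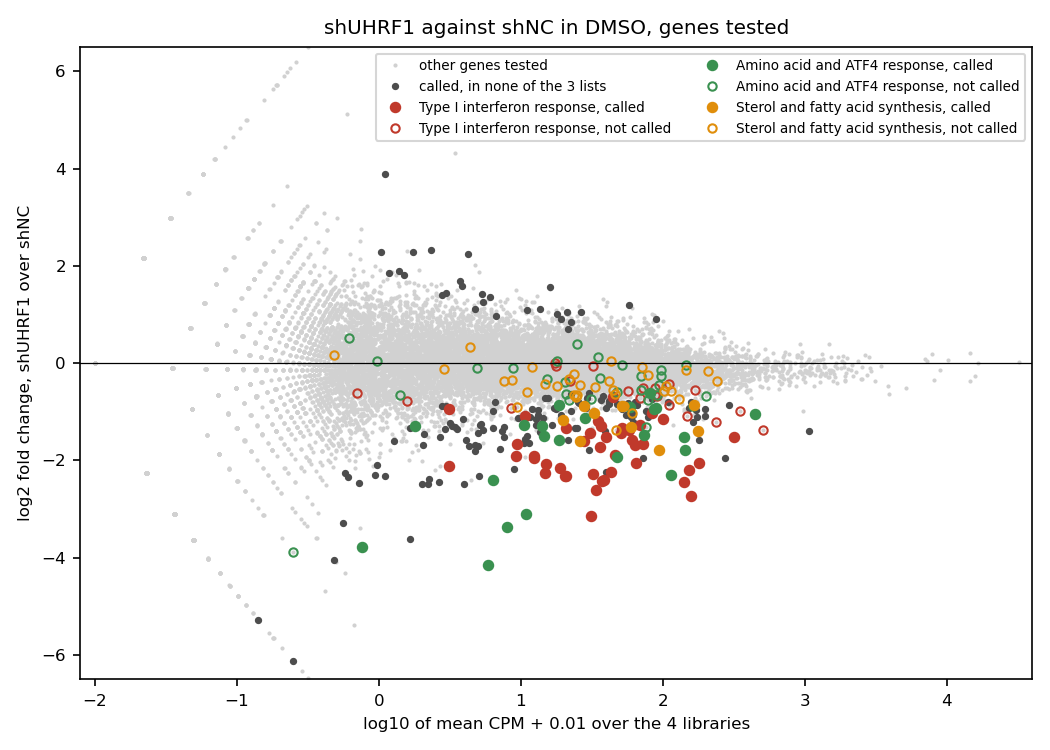
Fitted log2 fold change of shUHRF1 over shNC in DMSO (vertical axis) against the log10 of the mean CPM + 0.01 over the 4 libraries (horizontal axis), 1 point for each gene tested, with 3 gene lists in colour and filled points for genes called. The interferon points lie below 0 almost throughout, at a median of -1.42 over 62 genes, and the amino acid and sterol points reach down from 0 as well; 9 genes fall outside the plotted range.

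The interferon-stimulated genes were the largest group. Of 62 tested members of the type I interferon list 42 were lower in shUHRF1 cells and 0 higher, 61 had a log2 fold change below 0, and the list's median was -1.42 against -0.04 over all genes. With the replicate block 51 were lower, and without shNC library 1 35 were lower (50 with the block). Without shUHRF1 library 1 fewer were called than without shNC library 1, at a median log2 fold change of -1.44. Fitting only the 4 libraries compared left 11 of the 62 lower, with 61 still below 0. Beyond the members with the smallest adjusted p, the genes named in each role were chosen after their values were seen. In bulk RNA, fewer cells with an active response and less RNA in each cell cannot be told apart.

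The 4 IFIT proteins, which bind viral RNA and block its translation, are encoded side by side at chr10:89283694-89421605. All 4 were lower. IFIT1 had 11.2 and 7.75 CPM in shUHRF1 cells against 61.7 and 53.9 CPM in shNC cells. Neither shUHRF1 library came near the shNC range, and the fitted level was 6.10-fold lower (edgeR's quasi-likelihood test, log2 fold change -2.61 with SE 0.23, adjusted p = 8.31e-05). IFIT2 had 7.36 and 6.56 CPM in shUHRF1 cells against 30.5 and 31.3 CPM in shNC cells, IFIT3 had 6.002 and 7.66 CPM in shUHRF1 cells against 26.7 and 41.5 CPM in shNC cells, and IFIT5 had 4.74 and 4.28 CPM in shUHRF1 cells against 14.8 and 13.7 CPM in shNC cells. The log2 fold changes of these 3 ran from -2.32 to -1.66.

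The OAS enzymes make short oligoadenylates when they meet double-stranded RNA, as a signal that leads to RNA decay. OAS1, OAS3 and OAS2 lie together at chr12:112905856-113011723. OAS2 had 39.0 and 48.2 CPM in shUHRF1 cells and 240 and 236 CPM in shNC cells, 5.46-fold lower (edgeR's quasi-likelihood test, log2 fold change -2.45 with SE 0.17, adjusted p = 2.16e-05). OAS3 had 67.7 and 72.8 CPM in shUHRF1 cells against 285 and 298 CPM in shNC cells. OAS1 had 20.3 and 18.8 CPM in shUHRF1 cells against 79.4 and 65.5 CPM in shNC cells. OASL, a related protein that binds RNA without this enzyme activity, had 6.29 and 5.18 CPM in shUHRF1 cells against 28.3 and 20.04 CPM in shNC cells. All 4 fell and were without overlap between the lines.

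MX1 and MX2 are dynamin-like GTPases that trap viral particles. MX1 had 19.3 and 30.6 CPM in shUHRF1 cells against 95.1 and 114 CPM in shNC cells, and MX2 had 16.5 and 13.6 CPM in shUHRF1 cells against 76.0 and 65.5 CPM in shNC cells. With IFITM2, which was called in neither fit, and the proteins named next they form a role of 7 genes, of which 4 were lower and 6 with the block. IFITM1, which hinders fusion of viruses with the cell, had 58.0 and 51.8 CPM in shUHRF1 cells against 262 and 240 CPM in shNC cells and was 4.57-fold lower (adjusted p = 0.0011 by edgeR's quasi-likelihood test). LY6E fell to 154 and 174 CPM, against 526 and 419 CPM in shNC cells. IFITM3 had 384 and 181 CPM in shUHRF1 cells against 955 and 522 CPM in shNC cells, so that each library 1 was higher than its library 2 and the log2 fold change of -1.39 did not pass (adjusted p = 0.214, or 1.92e-07 with the replicate block, by edgeR's quasi-likelihood test). BST2, which tethers budding viruses to the cell, had 250 and 220 CPM in shUHRF1 cells against 549 and 384 CPM in shNC cells and passed only with the block (adjusted p = 0.184 without it and 4.56e-05 with it, edgeR's quasi-likelihood test); BISPR runs beside it on the other strand, and the strand setting of the counting is not given in the sources used here.

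ISG15 is a small ubiquitin-like protein that is attached to other proteins by UBE2L6 and HERC5 and removed by USP18. Of the 6 genes of this cycle 5 were lower. ISG15 (chr1:1001138-1014540) had 54.5 and 28.1 CPM in shUHRF1 cells against 388 and 159 CPM in shNC cells, 6.62-fold lower. In both lines library 1 was higher than library 2, and the adjusted p was 0.049 (1.02e-10 with the block) by edgeR's quasi-likelihood test. USP18 was more even, with 10.1 and 11.8 CPM in shUHRF1 cells against 57.9 and 49.2 CPM in shNC cells (edgeR's quasi-likelihood test, log2 fold change -2.29 with SE 0.20, adjusted p = 8.31e-05). UBE2L6 had 31.8 and 37.7 CPM in shUHRF1 cells against 119 and 101 CPM in shNC cells, HERC5 had 20.6 and 20.9 CPM in shUHRF1 cells against 57.8 and 61.2 CPM in shNC cells, and HERC6 had 2.90 and 4.90 CPM in shUHRF1 cells against 13.3 and 15.999 CPM in shNC cells. UBA7, the E1 enzyme of the cycle, was not called (log2 fold change -0.57).

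The interferon gene with the most negative log2 fold change was IFI44L (chr1:78619902-78646145), with 6.24 and 6.52 CPM in shUHRF1 cells against 51.8 and 61.2 CPM in shNC cells, 8.85-fold lower (edgeR's quasi-likelihood test, log2 fold change -3.15 with SE 0.33, adjusted p = 0.000347). Its neighbour IFI44 had 12.6 and 12.03 CPM in shUHRF1 cells against 76.9 and 53.6 CPM in shNC cells. RSAD2, the enzyme viperin that makes a chain-terminating nucleotide, had 4.99 and 5.18 CPM in shUHRF1 cells against 19.7 and 19.6 CPM in shNC cells, and CMPK2, a nucleotide kinase encoded beside it, had 8.66 and 14.7 CPM in shUHRF1 cells against 48.2 and 77.0 CPM in shNC cells. These 4 and IFI35 fell, while 4 others of the 9 genes in this role were not called (3 with the block). IFI27 had 99.4 and 46.5 CPM in shUHRF1 cells against 132 and 74.9 CPM in shNC cells, with overlapping ranges (log2 fold change -0.51, adjusted p = 0.778 by edgeR's quasi-likelihood test). IFI6 had 113 and 77.1 CPM in shUHRF1 cells against 233 and 171 CPM in shNC cells, without overlap, and passed only with the block (adjusted p = 0.296 without it and 0.000115 with it, edgeR's quasi-likelihood test). Among 31 further effectors 20 fell (26 with the block), with log2 fold changes of -2.26 for EPSTI1, -2.13 for the exonuclease ISG20, -1.57 for PARP9 and -0.70 for SP100.

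**Figure D2:**
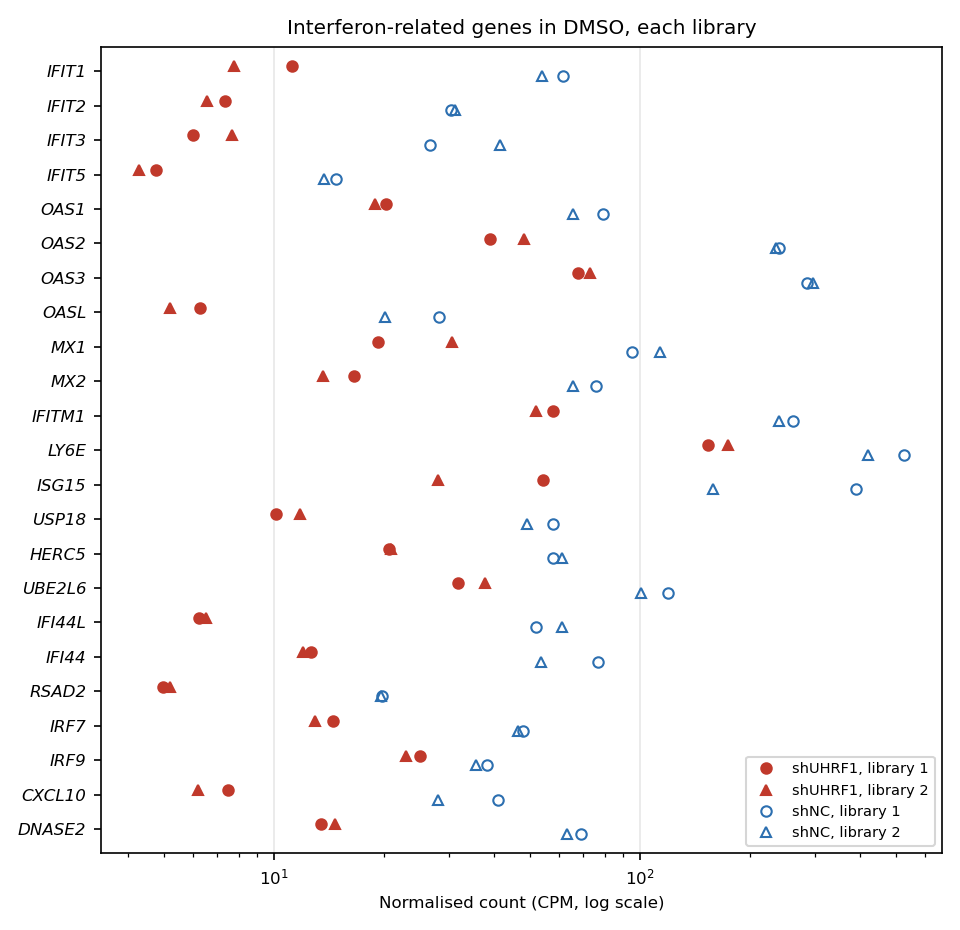
CPM of 23 genes from the interferon lists in DMSO on a log axis, with 1 symbol for each library (filled red for shUHRF1, open blue for shNC, circles for library 1 and triangles for library 2). DNASE2 is among them as a member of the list of sensors and nucleases. Genes of these lists with overlapping libraries, such as IFI27, are not plotted, so the separation described next follows from the choice of rows. In each of the 23 rows both shUHRF1 symbols lie left of both shNC symbols, from IFIT1 at 11.2 and 7.75 CPM in shUHRF1 cells against 61.7 and 53.9 CPM in shNC cells to DNASE2 at 13.4 and 14.7 CPM in shUHRF1 cells against 69.2 and 63.1 CPM in shNC cells.

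The signalling chain above these genes was lower only in part. Of the 7 tested receptors and kinases 0 were called by edgeR's quasi-likelihood test, with or without the block, and 0 by DESeq2, while 1 had an unadjusted p under 0.05 (median log2 fold change -0.05), among them IFNAR1 at -0.26, IFNAR2 at 0.05, JAK1 at -0.05 and TYK2 at 0.08. IFNB1, the only interferon gene with enough counts to be tested, had 0.242 and 0.190 CPM in shUHRF1 cells and 0.210 and 0.425 CPM in shNC cells. Of 10 transcription factors 4 were lower (5 with the block). IRF7, which amplifies interferon production, had 14.5 and 12.9 CPM in shUHRF1 cells against 47.8 and 46.4 CPM in shNC cells, and IRF9 had 25.1 and 22.97 CPM in shUHRF1 cells against 38.1 and 35.7 CPM in shNC cells. IRF2 fell by 0.71 on the log2 scale. STAT2 had 29.6 and 31.4 CPM in shUHRF1 cells against 37.4 and 60.1 CPM in shNC cells and passed only with the block (adjusted p = 0.304 without it and 0.00516 with it, edgeR's quasi-likelihood test).

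Many sensors of nucleic acid are interferon-stimulated genes themselves. In the list of sensors and nucleases 7 of 25 were lower, with and without the block (median log2 fold change -0.49). They were 5 of 9 RNA sensors (median -1.04), 1 of 7 DNA sensors (median -0.49) and 1 of 9 nucleases (median -0.22), and the difference between these groups was not tested. Both shUHRF1 libraries lay below both shNC libraries in 6 of the RNA sensors and 5 of the DNA sensors, as in 21.3% of all genes tested. RIGI had 11.2 and 10.4 CPM in shUHRF1 cells against 32.6 and 32.5 CPM in shNC cells, and IFIH1, a sensor of long double-stranded RNA, had 37.997 and 37.5 CPM in shUHRF1 cells against 77.4 and 85.0 CPM in shNC cells. DHX58, EIF2AK2 (the kinase PKR) and ADAR, which edits adenosine in double-stranded RNA, had log2 fold changes of -1.90, -1.03 and -0.86. The DNA sensor called was IFI16, at 21.9 and 21.3 CPM in shUHRF1 cells against 56.0 and 58.4 CPM in shNC cells, while CGAS and STING1 were at log2 fold changes of -0.15 and -0.49 and were not called. The nuclease was DNASE2, the lysosomal enzyme that degrades DNA from engulfed cells, with 13.4 and 14.7 CPM in shUHRF1 cells against 69.2 and 63.1 CPM in shNC cells (edgeR's quasi-likelihood test, log2 fold change -2.23 with SE 0.22, adjusted p = 0.000187).

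Of the guanylate-binding proteins, GTPases that attack vacuoles of pathogens, 3 of 6 were lower, with GBP2, GBP4 and GBP5 at log2 fold changes of -1.46, -0.94 and -0.72. The interferon-induced chemokines CXCL10 and CXCL11, which draw T cells, were the 2 called of 38 cytokines and chemokines (5 with the block). CXCL10 had 7.50 and 6.18 CPM in shUHRF1 cells against 40.9 and 28.1 CPM in shNC cells, and CXCL11 had 1.06 and 1.33 CPM in shUHRF1 cells against 6.84 and 6.59 CPM in shNC cells. Antigen presentation had 0 of 32 genes called by edgeR's quasi-likelihood test at a median log2 fold change of -0.18 (4 lower at an unadjusted p under 0.05, 2 by DESeq2), and 3 were lower with the block: TAP1 (95.7 and 94.5 CPM in shUHRF1 cells against 211 and 166 CPM in shNC cells), HLA-E and PSMB8.

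The promoters of 4 of these genes are shown because each holds matches to the ISRE core, the letters TTTC, any 2 bases and TTTC on either strand, which are in capitals (on the opposite strand the match reads GAAA, any 2 bases, GAAA). The sequences are RefSeq's for GRCh38.p14, 5′ to 3′ on the strand of the gene, and give the 250 bases before the annotated start. They lie at chr10:89392373-89392622 for IFIT1, chr1:78620198-78620447 for IFI44L, chr1:1013247-1013496 for ISG15 and chr12:112938224-112938473 for OAS3, all on the plus strand. Each has 2 matches, which overlap in ISG15.
IFIT1: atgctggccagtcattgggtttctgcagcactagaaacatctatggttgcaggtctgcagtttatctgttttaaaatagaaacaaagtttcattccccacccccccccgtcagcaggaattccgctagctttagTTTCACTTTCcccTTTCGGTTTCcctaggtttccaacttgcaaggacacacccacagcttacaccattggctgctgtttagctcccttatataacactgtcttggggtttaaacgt
IFI44L: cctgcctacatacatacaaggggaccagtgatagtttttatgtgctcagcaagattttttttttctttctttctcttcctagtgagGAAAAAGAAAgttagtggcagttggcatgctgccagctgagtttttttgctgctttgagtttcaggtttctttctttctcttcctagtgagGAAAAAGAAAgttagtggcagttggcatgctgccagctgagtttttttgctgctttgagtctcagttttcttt
ISG15: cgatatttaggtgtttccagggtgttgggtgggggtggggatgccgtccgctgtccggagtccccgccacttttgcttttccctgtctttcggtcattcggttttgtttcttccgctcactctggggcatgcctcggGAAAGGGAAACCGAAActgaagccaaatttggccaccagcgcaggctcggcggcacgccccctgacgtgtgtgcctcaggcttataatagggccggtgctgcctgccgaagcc
OAS3: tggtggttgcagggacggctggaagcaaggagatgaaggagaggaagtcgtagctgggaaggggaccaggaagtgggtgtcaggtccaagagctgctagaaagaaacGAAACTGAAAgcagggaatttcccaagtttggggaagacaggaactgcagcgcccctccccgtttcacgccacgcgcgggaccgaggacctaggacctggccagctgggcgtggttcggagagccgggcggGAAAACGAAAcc
In windows from 250 bases before to 50 after the start, the core was found in 22 of the 34 interferon-list genes called lower that had a promoter in the table (64.7%), in 29 of 48 list genes tested (60.4%), in 345 of 11736 genes tested (2.94%) and in 996 of all 27305 promoters (3.65%). It was found in 0 of 19 promoters of genes called higher. These are matches of letters, not sites shown to be bound.

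A second group of lower genes served amino acid supply. ATF4 is the transcription factor whose translation rises when amino acids are short or the endoplasmic reticulum is stressed, and it drives genes for amino acid synthesis, uptake and tRNA charging. Of 50 tested genes of this response 22 were lower in shUHRF1 cells and 0 higher, at a median log2 fold change of -0.75, and 32 were lower with the block. Leaving out 1 library gave 13 lower genes without shNC library 1 and 12 without shUHRF1 library 1, or 30 with the block in the first case. Fitting only the 4 libraries compared left 3 lower of 49 tested there, with 42 below 0. ATF4 itself (chr22:39519695-39522683) had 315 and 268 CPM in shUHRF1 cells against 682 and 524 CPM in shNC cells (edgeR's quasi-likelihood test, log2 fold change -1.05 with SE 0.19, adjusted p = 0.0184).

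Among the enzymes, the 3 steps that make serine from glycolysis were all lower. PSAT1 had 29.8 and 46.5 CPM in shUHRF1 cells against 193 and 185 CPM in shNC cells, 4.95-fold lower (adjusted p = 5.2e-05 by edgeR's quasi-likelihood test). PHGDH, the entry step, had 70.8 and 75.0 CPM in shUHRF1 cells against 219 and 199 CPM in shNC cells, and PSPH, the last step, had 13.8 and 12.8 CPM in shUHRF1 cells against 26.4 and 21.9 CPM in shNC cells. ASNS, which makes asparagine, had 24.8 and 14.9 CPM in shUHRF1 cells and 83.2 and 68.7 CPM in shNC cells. GPT2 also fell, so that 5 of 11 synthesis genes were called (6 with the block). Of 12 amino acid carriers 5 were lower (8 with the block), led in abundance by SLC7A5, the carrier of large neutral amino acids, at 59.1 and 69.6 CPM in shUHRF1 cells against 239 and 208 CPM in shNC cells. SLC38A1, SLC1A4 and SLC7A1 had log2 fold changes of -0.93, -0.95 and -0.62. SLC7A11, the cystine carrier, was at 0.40 and was not called. In one-carbon metabolism 1 of 5 was lower (4 with the block), ALDH1L2, while SHMT2 (159 and 152 CPM in shUHRF1 cells against 274 and 223 CPM in shNC cells) and MTHFD2 passed only with the block (adjusted p = 0.000721 and 0.000473 by edgeR's quasi-likelihood test).

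Of the 10 stress effectors of this response 7 were lower (8 with the block). STC2, a secreted glycoprotein, had 0.581 and 0.666 CPM in shUHRF1 cells against 11.7 and 10.6 CPM in shNC cells, 17.7-fold lower (edgeR's quasi-likelihood test, log2 fold change -4.15 with SE 0.25, adjusted p = 1.17e-05). CHAC1, which breaks down glutathione, had 2.08 and 2.47 CPM in shUHRF1 cells against 21.7 and 17.4 CPM in shNC cells, and the peptide hormone gene ADM2 had 1.45 and 1.33 CPM in shUHRF1 cells against 16.4 and 12.6 CPM in shNC cells, 8.56-fold and 10.4-fold lower. The regulators NUPR1 and TRIB3 had log2 fold changes of -2.41 and -1.49, and DDIT4 and SESN2, which restrain mTORC1, were at -1.49 and -1.28. Of 20 cytosolic tRNA synthetases 5 were lower (7 with the block), and of 17 mitochondrial ones 0 by edgeR's quasi-likelihood test, at an unadjusted p under 0.05 and by DESeq2. WARS1, which interferon also induces, had 69.7 and 72.6 CPM in shUHRF1 cells against 218 and 191 CPM in shNC cells, and GARS1 had 126 and 129 CPM in shUHRF1 cells against 309 and 234 CPM in shNC cells. The others were YARS1, CARS1 and AARS1, at log2 fold changes from -0.97 to -0.80. Of the 37 synthetases tested 1 was lower without shNC library 1 (7 with the block), 1 without shUHRF1 library 1 and 2 without shUHRF1 library 2. Fitting only the 4 libraries compared left 0 of the 37 synthetases lower. The chaperones and sensors of the unfolded protein response in the endoplasmic reticulum had 0 of 26 called by edgeR's quasi-likelihood test (1 higher and 1 lower with the block and likewise at an unadjusted p under 0.05, 1 lower by DESeq2).

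The promoters of ASNS and CHAC1 are shown for the amino acid response element, searched as TGATGNAAN on both strands and set in capitals, with the same window and source as above. They lie at chr7:97872409-97872658 (minus strand) and chr15:40953221-40953470 (plus strand).
ASNS: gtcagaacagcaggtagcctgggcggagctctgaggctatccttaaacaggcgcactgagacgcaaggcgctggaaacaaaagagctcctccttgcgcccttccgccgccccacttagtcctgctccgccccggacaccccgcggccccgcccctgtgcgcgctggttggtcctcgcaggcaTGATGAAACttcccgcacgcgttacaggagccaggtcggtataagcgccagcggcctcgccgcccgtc
CHAC1: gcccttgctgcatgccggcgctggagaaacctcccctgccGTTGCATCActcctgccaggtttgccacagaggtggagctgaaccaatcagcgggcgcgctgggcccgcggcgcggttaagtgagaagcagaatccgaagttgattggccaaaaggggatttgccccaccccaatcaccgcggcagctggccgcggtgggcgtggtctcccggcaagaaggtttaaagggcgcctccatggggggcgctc
The element was found in 5 of 17 promoters of list genes called lower (29.4%: ASNS, ATF3, CHAC1, SLC38A1 and SLC7A1), in 8 of 38 of those tested (21.1%), in 1.83% of all genes tested and in 3.67% of all promoters.

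Genes of cholesterol and fatty acid synthesis formed a smaller group. They are driven by SREBP transcription factors, which INSIG1 and SCAP hold in the endoplasmic reticulum while sterol is plentiful. Of 42 tested 9 were lower and 0 higher, with 39 below 0 and a median log2 fold change of -0.56, and 19 were lower with the block. Without shNC library 1 the counts were again 9 and, with the block, 19, while without shUHRF1 library 1 the count was 4. Fitting only the 4 libraries compared left 0 of the 42 lower, with 39 still below 0. INSIG1, a target of the pathway as well as its brake, had 31.9 and 52.0 CPM in shUHRF1 cells against 154 and 137 CPM in shNC cells (edgeR's quasi-likelihood test, log2 fold change -1.79 with SE 0.21, adjusted p = 0.000808). SREBF1 had 21.8 and 21.6 CPM in shUHRF1 cells against 49.2 and 38.9 CPM in shNC cells. All 20 cholesterol enzymes were below 0, 4 were called and 13 were with the block. HMGCS1, near the head of the pathway, had 27.9 and 40.5 CPM in shUHRF1 cells against 79.4 and 90.0 CPM in shNC cells, and FDFT1, the first step given over to sterols, had 111 and 126 CPM in shUHRF1 cells against 198 and 232 CPM in shNC cells. IDI1 and DHCR7 had log2 fold changes of -0.89 and -1.18. MSMO1 and SQLE stood just beyond the threshold, with adjusted p of 0.0524 and 0.0501 by edgeR's quasi-likelihood test. Of 13 fatty acid enzymes the 2 desaturases SCD and FADS2 were lower, SCD at 98.0 and 94.7 CPM in shUHRF1 cells against 271 and 240 CPM in shNC cells, while FASN was at a log2 fold change of -0.15. The sterol element, searched as TCACNCCAC on both strands, was found in 0 of 7 promoters of the called genes and in 1.07% of genes tested.

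**Figure D3:**
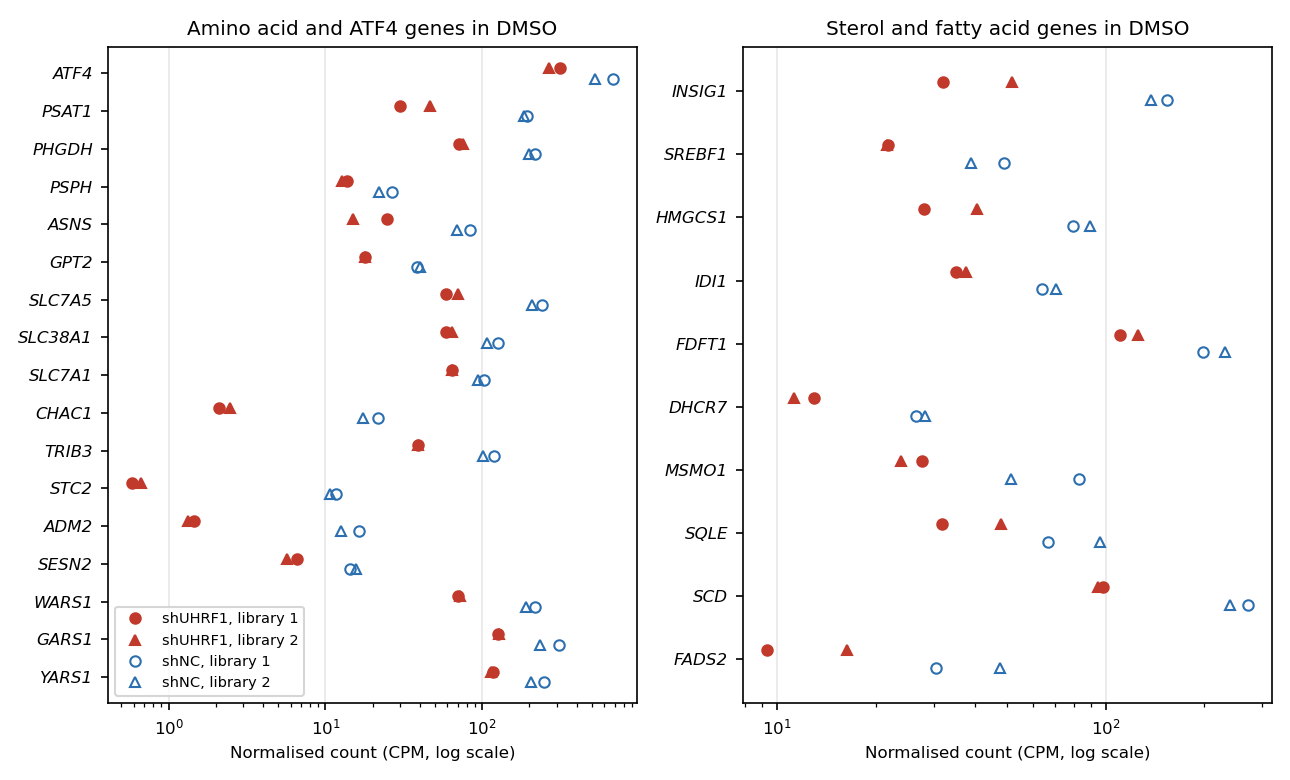
CPM of 17 amino acid and ATF4 response or tRNA synthetase genes (left) and 10 sterol and fatty acid genes (right) in DMSO on log axes, with the same symbols for the 4 libraries (filled red shUHRF1, open blue shNC). List genes with overlapping libraries are not plotted, so no row has overlapping lines. STC2 lies furthest apart, at 0.581 and 0.666 CPM in shUHRF1 cells against 11.7 and 10.6 CPM in shNC cells.

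The other lower genes included abundant ones and 2 macrophage differentiation markers. The most abundant of all genes called lower was GLO1, glyoxalase 1, which detoxifies methylglyoxal, with 581 and 592 CPM in shUHRF1 cells against 1863 and 1231 CPM in shNC cells (log2 fold change -1.40, adjusted p = 0.0326 by edgeR's quasi-likelihood test). TIMP3, an inhibitor of metalloproteinases, had 84.5 and 96.6 CPM in shUHRF1 cells against 296 and 245 CPM in shNC cells, and the adhesion molecule gene PECAM1 had 90.3 and 106 CPM in shUHRF1 cells against 251 and 203 CPM in shNC cells. Of 43 tested macrophage differentiation markers 2 were lower, the M-CSF receptor CSF1R, at 18.4 and 21.1 CPM in shUHRF1 cells against 38.4 and 36.7 CPM in shNC cells, and SIGLEC1, a sialic acid receptor that is also interferon-inducible, at 35.9 and 23.6 CPM in shUHRF1 cells against 130 and 100 CPM in shNC cells. With the block 9 were lower and 1 (CD36) was higher. The monocyte receptor gene CD14 had 1.31 and 1.09 CPM in shUHRF1 cells and 1.16 and 0.957 CPM in shNC cells, with overlapping ranges (edgeR's quasi-likelihood test, log2 fold change 0.18 with SE 0.48, adjusted p = 0.935). TNF had 1.02 and 0.618 CPM in shUHRF1 cells and 0.631 and 1.22 CPM in shNC cells, IL1B had 0.871 and 1.47 CPM in shUHRF1 cells and 1.47 and 2.29 CPM in shNC cells, and neither was called. IL6 had 2 counts in shUHRF1 library 1 and 0 in the other 3.

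Some falls ended near zero. LINC00607 and TBX21 had no count in either shUHRF1 library, against 18 and 10 counts over the shNC libraries. Taking 3 counts over the group as the limit of a zero, and the shNC level as exact, gives ratios of 6.61 and 3.67. The lower ends of the 95% counting intervals, which also cover the error of the shNC counts, were 4.85 and 2.47. GSG1 had 2 counts in shUHRF1 cells and 34 in shNC cells, a ratio of 18.7 (95% counting interval 4.80 to 161, counting error only). HHLA2, an immune checkpoint ligand, had 0.194 and 0.285 CPM in shUHRF1 cells against 3.31 and 2.76 CPM in shNC cells. C5AR1, a complement receptor, had 0.0968 and 0.0951 CPM in shUHRF1 cells against 1.10 and 0.904 CPM in shNC cells. Apart from HHLA2, these genes were chosen after their values were seen.

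Of the 28 higher genes 25 belonged to none of the lists used, so the lists say little about them. The 28 were 20 protein-coding genes, 7 long non-coding RNAs and 1 pseudogene, at a median log2 fold change of 1.38, and 5 exceeded 2. COL22A1, a collagen of tissue junctions, had 1.84 and 2.28 CPM in shUHRF1 cells against 0.158 and 0.106 CPM in shNC cells (edgeR's quasi-likelihood test, log2 fold change 3.89 with SE 0.58, adjusted p = 0.00457). PDK4, which turns off pyruvate dehydrogenase, had 2.66 and 3.09 CPM in shUHRF1 cells against 0.368 and 0.797 CPM in shNC cells, and IGLON5, a neuronal adhesion molecule, had 6.58 and 7.42 CPM in shUHRF1 cells against 1.21 and 1.75 CPM in shNC cells. All 3 were low in both lines in absolute terms. SNHG12, a host gene of small nucleolar RNAs, rose to 25.6 and 22.2 CPM, against 6.89 and 9.20 CPM in shNC cells (log2 fold change 1.57, adjusted p = 0.022 by edgeR's quasi-likelihood test). It was the only one of 15 such host genes called, and 5 were higher with the block, among them TAF1D (130 and 93.5 CPM in shUHRF1 cells against 61.3 and 59.5 CPM in shNC cells) and SNHG1 (101 and 88.8 CPM in shUHRF1 cells against 42.2 and 63.9 CPM in shNC cells).

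The most abundant higher gene was TONSL, which guards newly replicated chromatin at stalled forks, at 128 and 104 CPM in shUHRF1 cells against 57.9 and 65.9 CPM in shNC cells (edgeR's quasi-likelihood test, log2 fold change 0.91 with SE 0.16, adjusted p = 0.0155). EME2, part of a nuclease that cuts branched DNA, had 25.0 and 25.5 CPM in shUHRF1 cells against 11.6 and 15.2 CPM in shNC cells, and RAD52, which anneals single strands, had 6.82 and 4.76 CPM in shUHRF1 cells against 1.95 and 1.91 CPM in shNC cells. RAD52 was the 1 gene called of 61 in the DNA repair list, which does not hold TONSL or EME2. The median log2 fold change of the list was 0.05, and 7 were higher with 1 lower under the block, including FANCD2 (94.2 and 83.5 CPM in shUHRF1 cells against 49.2 and 59.7 CPM in shNC cells) and FANCA. MLXIPL, the carbohydrate-responsive factor ChREBP, had 9.10 and 6.47 CPM in shUHRF1 cells against 2.74 and 3.08 CPM in shNC cells, and CYP27A1, which makes an oxysterol, had 4.11 and 3.95 CPM in shUHRF1 cells against 1.84 and 1.22 CPM in shNC cells. DANCR, a long non-coding RNA, had 35.9 and 36.0 CPM in shUHRF1 cells against 19.99 and 14.9 CPM in shNC cells. EP400P1, a copy of EP400, SLC9A3-AS1 and ENSG00000266976 were also higher, but reads shared with a near-identical copy or with a gene on the other strand could shift their values.

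The genes of DNA methylation were not called. In that list 0 of 27 passed edgeR's quasi-likelihood test (median log2 fold change 0.04; 2 higher at an unadjusted p under 0.05, 1 by DESeq2), and with the block HELLS, a chromatin remodeler needed for methylation, was higher at 44.4 and 39.5 CPM in shUHRF1 cells against 24.3 and 28.1 CPM in shNC cells, while ZBTB38 was lower. DNMT3B had 9.58 and 11.4 CPM in shUHRF1 cells and 8.73 and 9.73 CPM in shNC cells. Genes that methylation commonly silences were likewise few: 0 of 9 tested germline genes and 0 of 27 zinc finger repressors of chromosome 19 were called by edgeR's quasi-likelihood test (1 each higher with the block, 2 each at an unadjusted p under 0.05 and 0 each by DESeq2), and of 19 imprinted genes GRB10 alone was called, lower at 14.3 and 12.7 CPM in shUHRF1 cells against 33.0 and 35.8 CPM in shNC cells. With the block 3 imprinted genes were higher. Of 32 germline genes listed, 22 had too few counts to be tested and 1 was not matched to the table.

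The remaining lists held few calls by edgeR's quasi-likelihood test. H3K9 methylation (17 genes), ribosomal proteins (62), mitochondrially encoded genes (15), replication and mitosis (54), lysosome (34), NF-kB and CD40 signaling (24), progenitor genes (36), NRF2 targets (19), p53 targets (16), LXR targets (8) and metallothioneins with zinc carriers (8) had 0 called without the block, with medians from -0.32 to 0.15. With the block they had 0, 0, 0, 1, 2, 3, 3, 3, 5, 2 and 1 called, in that order, at an unadjusted p under 0.05 they had 2, 0, 0, 5, 6, 3, 6, 6, 5, 1 and 0, and by DESeq2 0, 0, 0, 1, 1, 1, 1, 0, 1, 0 and 0. Replication-dependent histones had 0 of 18 called at a median of -0.69 (6 lower at an unadjusted p under 0.05, 4 by DESeq2), and 4 were lower with the block, led by the linker histone H1-2 at 5.61 and 3.28 CPM in shUHRF1 cells against 19.6 and 14.5 CPM in shNC cells. These transcripts mostly lack a poly(A) tail and the libraries were selected by oligo-dT, so their level here is that of the polyadenylated fraction. In phospholipase C and MAPK signaling the immediate-early transcription factor gene EGR1 was the 1 called of 30, at 2.81 and 3.38 CPM in shUHRF1 cells against 6.68 and 8.19 CPM in shNC cells. Hypoxia and glycolysis had 2 of 30 lower, VEGFA and ALDOC, and adhesion and matrix genes had 1 of 33 higher (COL22A1) and 2 lower (TIMP3 and PECAM1).

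The same hairpins were also compared after 48 h of PMA, in 4 other libraries, which asks whether the falls carried over to differentiated cells. In PMA 336 genes were higher (2.04%) and 265 lower (1.61%) in shUHRF1 cells, or 947 and 673 with the block. Leaving out any 1 of these 4 libraries took the counts to between 53 and 112 higher and between 57 and 73 lower (535 to 733 and 424 to 557 with the block), and the overlaps that follow rest on the calls from all 4. Of the 189 genes lower in DMSO, 52 were lower in PMA too (27.5% of the DMSO genes and 19.6% of the PMA genes), 156 were below 0 there (82.5%, against 47.4% of all genes) and 2 were higher (ALDOC and PRSS23). Of the 28 genes higher in DMSO, 5 were higher in PMA (PDK4, IGLON5, FAP, MLXIPL and MYBPH; 17.9% of the DMSO genes and 1.49% of the PMA genes), and DANCR was lower. UHRF1 had 9.62 and 12.2 CPM in shUHRF1 cells in PMA and 4.62 and 7.43 CPM in shNC cells in PMA, a log2 fold change of 0.87 (adjusted p = 0.129, or 0.000375 with the block, by edgeR's quasi-likelihood test). At the RNA level this runs against the label.

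Of the interferon list 42 genes were lower in DMSO and 2 of these in PMA too, of the amino acid list 18 of 22 were lower in both, of the sterol list 8 of 9 and of the synthetases 5 of 5. In PMA the medians of the log2 fold change were -0.11, -0.78 and -0.59 for the interferon, amino acid and sterol lists, against -1.42, -0.75 and -0.56 in DMSO. The difference between the contrasts, PMA minus DMSO, was tested as an interaction, which uses the same DMSO libraries as the main comparison. It was positive in 122 genes (0.739%) and negative in 18 (0.109%), with 1400 in both directions under the block, and 27 of the 62 interferon genes were positive (53 with the block, 39 by DESeq2). IFIT1 had 733 and 557 CPM in shUHRF1 cells in PMA against 795 and 702 CPM in shNC cells in PMA, levels above all 4 DMSO libraries, and its difference between treatments was 2.39 (SE 0.31, adjusted p = 0.00642 by edgeR's quasi-likelihood test). OAS2 had 473 and 470 CPM in shUHRF1 cells in PMA against 655 and 578 CPM in shNC cells in PMA (difference 2.06, adjusted p = 0.00494 by edgeR's quasi-likelihood test). Leaving out 1 of the 8 libraries left between 4 (without shNC library 2 in PMA) and 21 (without shUHRF1 library 2 in PMA) positive interferon genes, with 20 when shNC library 1 in DMSO was left out, or 47 in that case with the block. Fitting only those 8 libraries left 1 of the 62 interferon genes positive. In the amino acid list 1 of 50 was positive, STC2, which in PMA had 2.21 and 1.74 CPM in shUHRF1 cells against 5.05 and 4.26 CPM in shNC cells. PSAT1 was at 12.7 and 14.2 CPM in shUHRF1 cells and 125 and 124 CPM in shNC cells in PMA, a log2 fold change of -3.21 there and of -2.31 in DMSO. In the sterol list 2 of 42 were negative, among them DHCR7, which catalyses the last step to cholesterol and had 2.9999 and 2.85 CPM in shUHRF1 cells in PMA against 18.03 and 14.7 CPM in shNC cells in PMA.

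**Figure D4:**
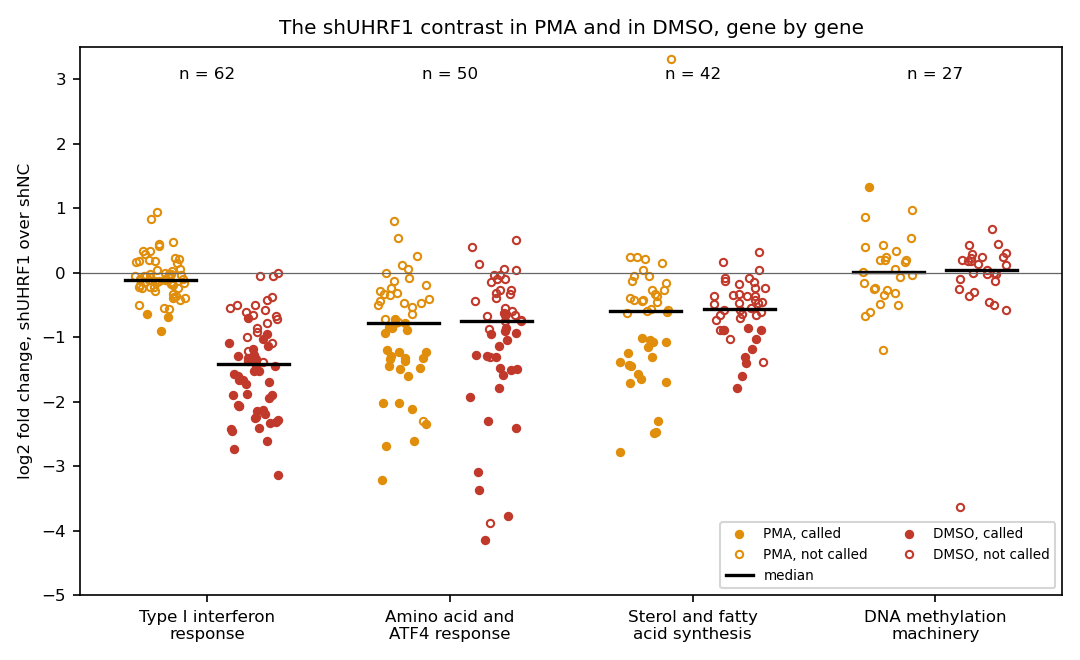
Fitted log2 fold change of shUHRF1 over shNC (vertical axis) for each gene of 4 lists, in PMA (orange, left) and in DMSO (red, right), with filled points for genes called and a bar at the median. The interferon medians are -0.11 in PMA and -1.42 in DMSO, whereas those of the amino acid list are -0.78 and -0.75, and those of the sterol list are -0.59 and -0.56.

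Direct comparison with the other 2 hairpin lines in DMSO gave log2 fold changes above 0 for 59 of the 62 interferon genes against shDNMT1 and for 56 against shDNMT3B. These comparisons share the shUHRF1 libraries with the one above, so values are set side by side. As with UHRF1, the names shDNMT1 and shDNMT3B are used as labels of the libraries. DNMT1 had 123 and 159 CPM in shUHRF1 cells, 82.4 and 111 CPM in shDNMT1 cells, 73.3 and 102 CPM in shDNMT3B cells and 89.6 and 140 CPM in shNC cells, so that the line with the hairpin against it overlapped shNC and was not the lowest. DNMT3B had 9.58 and 11.4 CPM in shUHRF1 cells, 7.98 and 8.73 CPM in shDNMT1 cells, 6.396 and 6.87 CPM in shDNMT3B cells and 8.73 and 9.73 CPM in shNC cells, lowest in the line with its hairpin. Neither line was tested against shNC here. Against shDNMT1 cells 211 genes were higher in shUHRF1 cells (1.28%) and 25 lower (0.151%), and against shDNMT3B cells 269 were higher (1.63%) and 431 lower (2.61%). With the block these counts were 624 and 216 against shDNMT1, and 1061 and 1145 against shDNMT3B. Leaving out any 1 of the 4 libraries of a comparison took them to between 60 and 137 higher and between 3 and 12 lower against shDNMT1, and to between 69 and 151 higher and between 156 and 273 lower against shDNMT3B. Of the 62 interferon genes 33 were higher in shUHRF1 than in shDNMT1 cells (median log2 fold change 1.14) and 26 were higher than in shDNMT3B cells (0.78). IFIT1 had 11.2 and 7.75 CPM in shUHRF1 cells, 1.41 and 1.51 CPM in shDNMT1 cells, 2.17 and 1.48 CPM in shDNMT3B cells and 61.7 and 53.9 CPM in shNC cells. MX1 had 19.3 and 30.6 CPM in shUHRF1 cells, 1.90 and 3.17 CPM in shDNMT1 cells, 4.39 and 5.60 CPM in shDNMT3B cells and 95.1 and 114 CPM in shNC cells. For both genes the shUHRF1 libraries lay below both shNC libraries and above all 4 libraries of the other lines, and shUHRF1 was higher than shDNMT1 by 3.29 and than shDNMT3B by 2.32 on the log2 scale for MX1 (adjusted p = 7.08e-05 and 0.000309 by edgeR's quasi-likelihood test). A raised level in shNC cells and lowered levels in the other lines cannot be told apart here. IFI27, which was not called against shNC, had 99.4 and 46.5 CPM in shUHRF1 cells, against 2.82 and 1.20 CPM in shDNMT1 cells and 8.25 and 2.24 CPM in shDNMT3B cells. DNASE2 broke the order, with 13.4 and 14.7 CPM in shUHRF1 cells, 20.1 and 18.7 CPM in shDNMT1 cells, 63.4 and 56.4 CPM in shDNMT3B cells and 69.2 and 63.1 CPM in shNC cells.

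The amino acid genes of shUHRF1 cells were far below those of shDNMT3B cells. Against shDNMT1, 2 of 50 were higher (median log2 fold change 0.09), and against shDNMT3B 35 were lower (-1.31). PSAT1 had 29.8 and 46.5 CPM in shUHRF1 cells, 35.6 and 30.9 CPM in shDNMT1 cells, 286 and 289 CPM in shDNMT3B cells and 193 and 185 CPM in shNC cells. CHAC1 had 2.08 and 2.47 CPM in shUHRF1 cells, 1.58 and 1.46 CPM in shDNMT1 cells, 46.6 and 36.8 CPM in shDNMT3B cells and 21.7 and 17.4 CPM in shNC cells. In both genes shDNMT3B cells were the highest line. The log2 fold changes of shUHRF1 over shDNMT1 were 0.20 (SE 0.18) for PSAT1 and 0.59 (SE 0.23) for CHAC1, with adjusted p of 0.851 and 0.363 by edgeR's quasi-likelihood test, which does not show that the lines act alike. Sterol genes ran the other way against shDNMT3B, with 11 of 42 higher in shUHRF1 cells and 2 lower (median 0.51), whereas against shDNMT1 1 was higher and only with the block. INSIG1 had 31.9 and 52.0 CPM in shUHRF1 cells, 57.4 and 52.9 CPM in shDNMT1 cells, 15.5 and 14.4 CPM in shDNMT3B cells and 154 and 137 CPM in shNC cells.

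**Figure D5:**
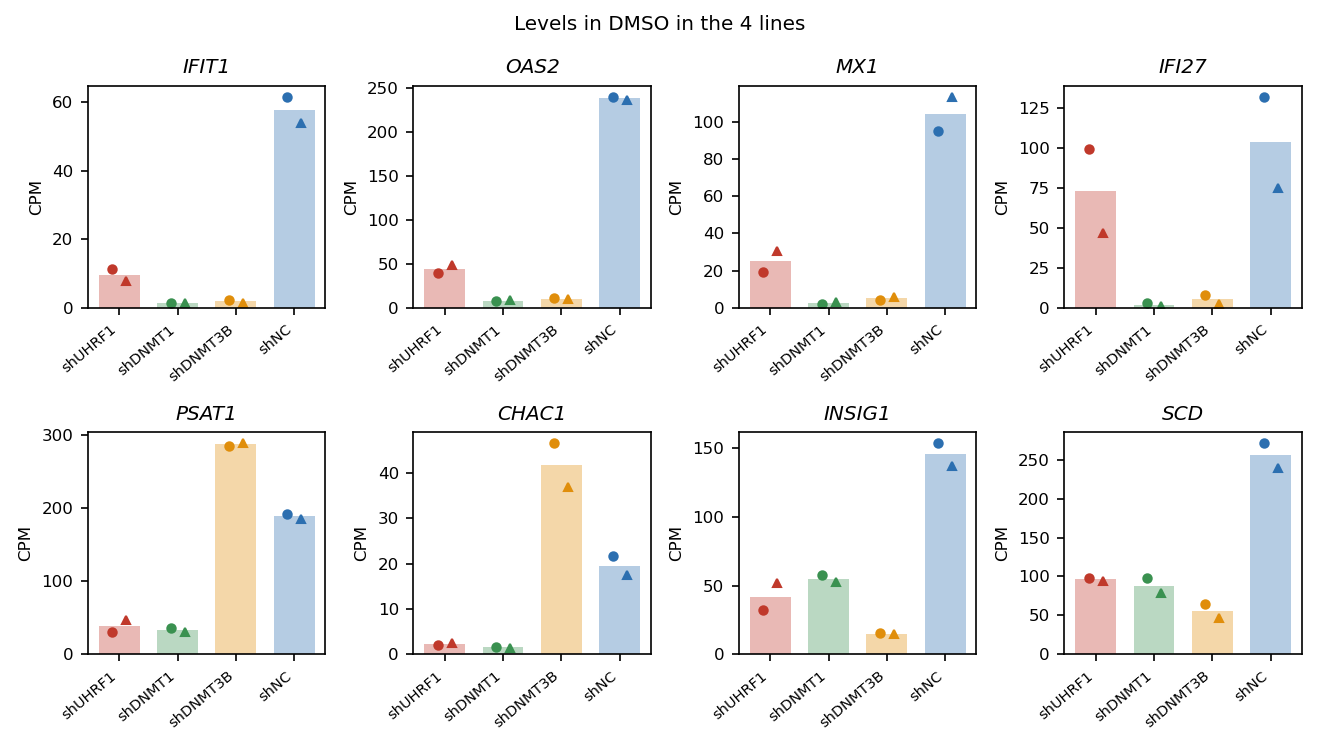
CPM in DMSO of 8 genes in shUHRF1, shDNMT1, shDNMT3B and shNC cells, with bars from 0 at the mean of the 2 libraries, circles for library 1 and triangles for library 2. IFIT1, OAS2 and MX1 are highest in shNC, intermediate in shUHRF1 and lowest in the other 2 lines, while PSAT1 and CHAC1 are low in shUHRF1 and shDNMT1 cells and highest in shDNMT3B cells.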

How the data were processed

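Poly(A) RNA of THP-1 lines was sequenced by the authors with a stranded mRNA kit. Per the submitters' processing notes STAR 2.4.0b, Cufflinks 2.1.1, HTSeq 0.6.1p1 and edgeR were used with hg38, and the strand setting is not given in the sources used here. The deposited table holds raw counts per gene. The labels and column names gave the groups. Symbols came from GENCODE release 44, which named 60357 of the 60676 genes. Of these, 32623 had no count in the 16 libraries.

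Counts were analysed with edgeR 4.0.16 in R 4.3.3 (limma 3.58.1): trimmed mean of M-values factors, filterByExpr (minimum count 10, minimum total 15), 1 coefficient for each of 8 groups over all 16 libraries, robust quasi-likelihood test with Benjamini-Hochberg adjustment over 16503 genes. Calls needed an adjusted p under 0.05 and a log2 fold change beyond 0.585. The difference between PMA and DMSO was an interaction with no fold limit. DESeq2 1.42.0, other filters and factors, single libraries left out and fewer libraries were alternatives. The replicate number was added as a block in a further fit, since deviations of same-numbered libraries correlated in 28 of 28 pairs of groups (0.22 to 0.508, and 0.442 for the 2 lines compared), and the common dispersion was then 0.0115 instead of 0.0439. The steps were also run on simulated counts drawn without a replicate effect, so that run does not cover the difference between library 1 and library 2.

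Depth was 13883556 to 23151864 counts, and intervals and floors cover counting error only. Genes to be named were those the study discusses, the 15 largest called changes each way at a mean of at least 1 CPM, the 10 most abundant called each way, up to 6 members of each of 32 lists by adjusted p, whole lists of up to 10 tested genes, and cell markers above 10 CPM; further names were chosen after their values were seen, and a few genes are not reported here. The members and lists were chosen with earlier results of these data known. Of 1033 list genes 925 were tested. Promoters were read from RefSeq's table for GRCh38.p14. Python 3.11.15, pandas 2.3.3 and matplotlib 3.10.9 made tables and figures.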

Additional observations from a re-analysis of the deposited data

Results flagged for a closer look

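The genes below are those named in the text for which edgeR's quasi-likelihood test of the interaction gave an adjusted p under 0.05. In them the change in shUHRF1 cells against shNC cells differed between PMA and DMSO. They are part of the 140 genes that passed over all genes tested. Many were named for a fall in DMSO, and the interaction uses the same DMSO libraries, so the choice favours positive differences. Each value is the log2 fold change in PMA minus that in DMSO, so a positive one means that the gene was less reduced, or more raised, in PMA.

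Among antiviral effectors the differences were 2.39 for IFIT1, 1.51 for IFIT2, 1.96 for IFIT3, 1.54 for IFIT5, 1.88 for OAS1, 2.06 for OAS2, 1.90 for OAS3, 2.26 for OASL, 2.02 for MX1, 2.13 for MX2 and 2.06 for IFITM1. In the ISG15 cycle they were 2.06 for USP18, 1.46 for HERC5 and 1.63 for UBE2L6. IFI44L and IFI44 stood at 2.95 and 2.88, IFI35 at 1.57, IFI16 at 1.69, CMPK2 at 2.27 and EPSTI1 at 2.16. The transcription factor IRF7 was at 1.36, the chemokines CXCL10 and CXCL11 at 2.00 and 2.59, the RNA sensors RIGI and DHX58 at 1.27 and 2.24, the nuclease DNASE2 at 1.70, and GBP2 and GBP5 at 2.05 and 1.02. All of these genes had been lower in DMSO, for which many of them were named, so this is no separate result.

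Outside these genes, STC2 differed by 2.92, and the complement receptors C5AR1 and C3AR1 by 3.30 and 1.19, the receptor kinase gene AXL by 2.00, MYBPH by 1.38 and the glycolytic enzyme ALDOC by 2.22. The differences were negative for the sterol gene DHCR7 (-1.30), for COL22A1 (-3.84) and for DANCR (-2.02).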

How the results depend on the processing

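Of the 217 called genes 0 changed sign under any alternative, among those measured there. The shUHRF1 and shNC libraries did not overlap for any of the 217, so leaving libraries out or rescaling could hardly turn a sign. The absence of sign changes therefore does not test how the calls depend on the processing. In DMSO the counts higher and lower were 528 and 669 with the replicate block, 649 and 827 at an unadjusted p, 184 and 361 without a filter, 0 and 15 with only the 4 libraries compared, 125 and 344 by DESeq2, and 26 and 122 by the exact test after removal of candidate genes from scaling. DESeq2 shared 28 and 187 of the calls, and the exact test 12 and 107. The alternatives of PMA gave 947 and 673 with the block, 1137 and 793 unadjusted, 520 higher without a filter, and 97 and 87 with only its libraries. The interaction gave 1400 with the block, 1970 unadjusted, 321 without a filter, 1 with only its 8 libraries and 391 by DESeq2. Against shDNMT1 the counts were 624 and 216 with the block, 951 and 316 unadjusted, 390 and 80 without a filter, 8 and 0 with only the libraries compared, and 68 lower by DESeq2. Against shDNMT3B they were 1061 and 1145 with the block, 1001 and 1248 unadjusted, 532 higher without a filter, 33 and 91 with only the libraries compared, 425 higher by DESeq2 and 156 higher by the exact test. The cause was not tested, except that fits with fewer libraries have fewer residual degrees of freedom.

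Leaving out libraries gave 0 to 49 higher and 31 to 174 lower in DMSO (87 to 1006 and 287 to 1361 with the block), 19 to 112 and 14 to 73 in PMA (535 to 733 and 424 to 557 with the block), 0 to 108 for the interaction (698 to 2151 with the block), 29 to 137 and 0 to 12 against shDNMT1 (298 to 628 and 92 to 465 with the block), and 40 to 151 and 67 to 273 against shDNMT3B (612 to 1236 and 581 to 1272 with the block). The log2 fold change of the UHRF1 transcript ran from -0.59 to -0.09 (-0.41 to -0.29 with the block) and was called in none of these. Uncalled genes at low counts turned in sign: when libraries were left out, CD14 ran from -0.022 to 0.41 and TNF from -0.96 to 0.67, each including settings with the block. Where 1 library of a line is left, it is assumed to vary like the others.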
